A study of Drosophila melanogaster with 4 samples.

Results

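The genes for the proteins of the mitochondrial ribosome were followed in pole cells of Drosophila melanogaster, the primordial germ cells of the embryo, after expression of the kinase Tao in the germ line. The set holds every gene whose symbol in the platform's probe annotation reads mRpL or mRpS and a number, taken only from probes that carry 1 symbol. It comprised 65 of the 10804 genes with a value, of which 44 carry a large-subunit symbol (mRpL) and 21 a small-subunit symbol (mRpS). They were measured by 75 probes, 55 members by 1 probe and 10 by 2, and the probes of a gene were averaged. Symbols alone chose the members, so none entered for its measured value, and all 65 had a value other than 0 on every array. Of 73 genes of this pattern in RefSeq, mRpL34, mRpL47, mRpL53, mRpS5, mRpS14, mRpS21, mRpS23 and mRpS34 were not analysed here, nor was tko, a small-subunit gene under another symbol.

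The RNA came from pole cells of stage 8 to 14 embryos, isolated by FACS. All fathers carried EGFP-Vas, the fluorescent germ-line marker, together with UAS-tao-1(D168A) or UAS-tao-1(D168D). The mothers of the driven cells were homozygous for nosGal4:VP16, a Gal4 activator expressed in the female germ line, and those of the non-driven cells were yw. The non-driven cells therefore had the same kind of father, with transgene and marker, but no driver. The labels call D168A dominant negative. By elimination, D168D is what the series title calls wild-type; its sample descriptions say overexpressing and its sample titles carry gof. How many embryos or collections entered a sample is not given in the sources used here. Driven and non-driven cells differed in the genotype of the mother as well as in the driven kinase, and these cannot be told apart. In a pool of sorted cells, fewer cells of a type and less RNA per cell cannot be told apart either.

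Mitochondria translate the few mRNAs of their own genome on a ribosome of their own. Its RNAs come from the mitochondrial genome, while its proteins are encoded in the nucleus, made in the cytosol and imported. In animals all its protein products are subunits of the oxidative phosphorylation complexes. Many of its proteins have a counterpart in bacterial ribosomes, and others occur in mitochondria only. In Drosophila, pole cells form around the germ plasm, a region rich in mitochondria, where mitochondrial ribosomal RNA is also known from outside the organelle.

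Each form of the kinase was hybridised on 2 Agilent 2-colour arrays of opposite dye orientation, with driven RNA in Cy3 on one and in Cy5 on the other. Their titles share 1 number, and they were counted as 1 replicate. No value of a single form can therefore be checked against a second replicate. Every value below is a log2 ratio of driven over non-driven cells, 0 meaning no difference, and ± is how far each array of a form stood from their mean. Ratios hold no levels, so neither the amount of a transcript nor the labelled cell type can be read from them. Of 7 germ-cell genes looked up, 4 had a value. gcl was at 0.05 ± 0.10 with D168A and 0.20 ± 0.09 with D168D, and osk at -0.44 ± 0.21 and 0.05 ± 0.0047. In the same order, tud was at 0.03 ± 0.22 and 0.06 ± 0.19, and piwi at 0.10 ± 0.01 and 0.06 ± 0.27. Tao itself was at 2.98 on the Cy3-driven and 2.84 on the Cy5-driven array of D168A, and at 3.04 and 2.99 on those of D168D, where arrays are called by the dye that carried the driven RNA. It was far above 0 on all 4 arrays. The direction of the ratios was itself read in part from Tao, so its sign is no separate check of the labels.

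Mitochondrial ribosomal protein genes lay close to 0 in these cells, as did most genes. The highest absolute log2 ratio of a member on any array was 0.95, which is 1.93-fold. In the mean over both forms, 53 of 65 members were between -0.2 and 0.2, 9 were at or below -0.2 and 3 at or above 0.2. These are 81.5%, 13.8% and 4.62% of the members, against 76.7%, 9.65% and 13.7% of all genes. A call required both arrays of a form to reach 2-fold on the same side of 0. With D168A, 0 members met it, against 0.157% of all genes. With D168D, 0 met it too, against 0.167% of all genes.

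**Figure D1:**
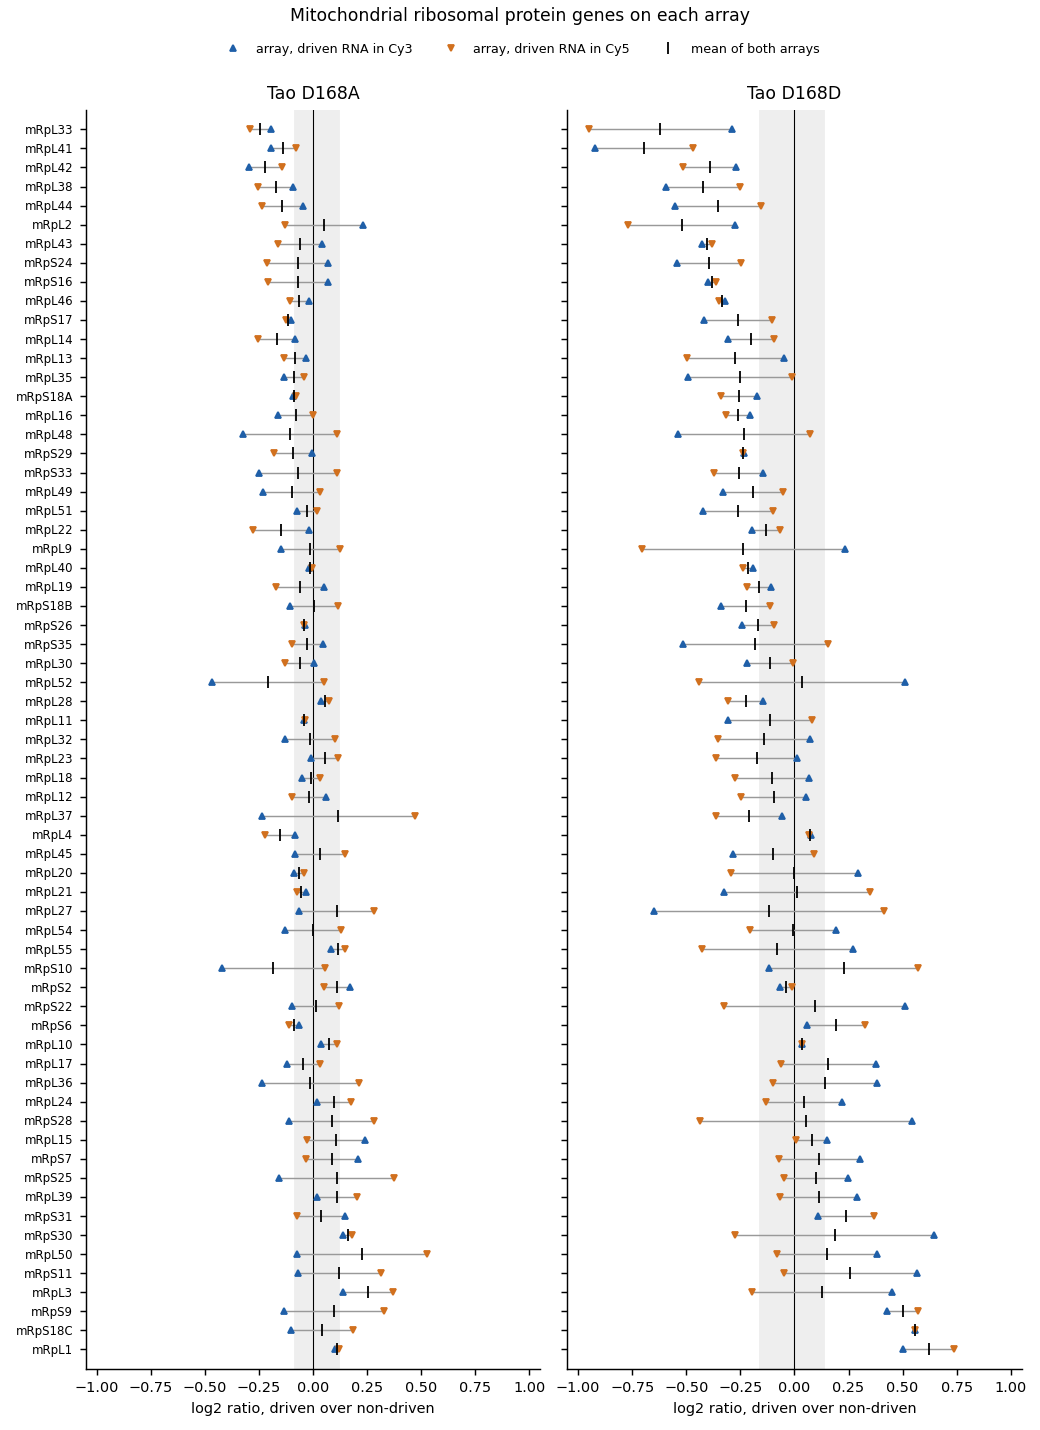
Log2 ratio of driven over non-driven cells (horizontal axis) for each of the 65 mitochondrial ribosomal protein genes (vertical axis, ordered by the mean over both forms), with D168A on the left and D168D on the right. Triangles are single arrays by dye of the driven RNA, short bars are means of both arrays, and the grey band spans the 25th to 75th percentile of all genes. mRpL33 stands lowest and mRpL1 highest, and the arrays of D168D lie farther apart for 48 of the 65 genes.

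With D168A the members lay near the median of all genes. Their median was -0.03, against 0.01 over all genes. On the array with driven RNA in Cy3 their median was -0.06, with 45 of 65 below 0 (69.2%, all genes 49.3%). On the array with driven RNA in Cy5 the median was 0.02, with 31 of 65 below 0 (47.7%, all genes 47.2%). The array medians thus lay on opposite sides of 0. Both arrays were below 0 for 20 members (30.8%, against 21.5% of all genes) and above 0 for 9 (13.8%, against 24.4%). The arrays of D168A differed in sign for the other 36 members. At a smaller size of 1.2-fold on both arrays, a threshold added after the values had been seen, 0 members were lower and 0 higher, against 1.26% and 2.73% of all genes.

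With D168D the members lay lower, on both arrays. Their median was -0.12, against -0.01 over all genes. It was -0.11 with driven RNA in Cy3, with 36 of 65 below 0 (55.4%, all genes 49.6%), and -0.13 with driven RNA in Cy5, with 50 of 65 below 0 (76.9%, all genes 50.4%). Both arrays were below 0 for 29 members (44.6%, against 24.1% of all genes) and above 0 for 8 (12.3%, against 23.3%). The remaining 28 had arrays on different sides. At 1.2-fold on both arrays 7 members were lower (10.8%, against 3.53% of all genes) and 3 were higher (4.62%, against 4.23%). The lower members, listed here by that rule, were mRpL2, mRpL33, mRpL41, mRpL42, mRpL43, mRpL46 and mRpS16, and the higher ones were mRpL1, mRpS9 and mRpS18C.

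**Figure D2:**
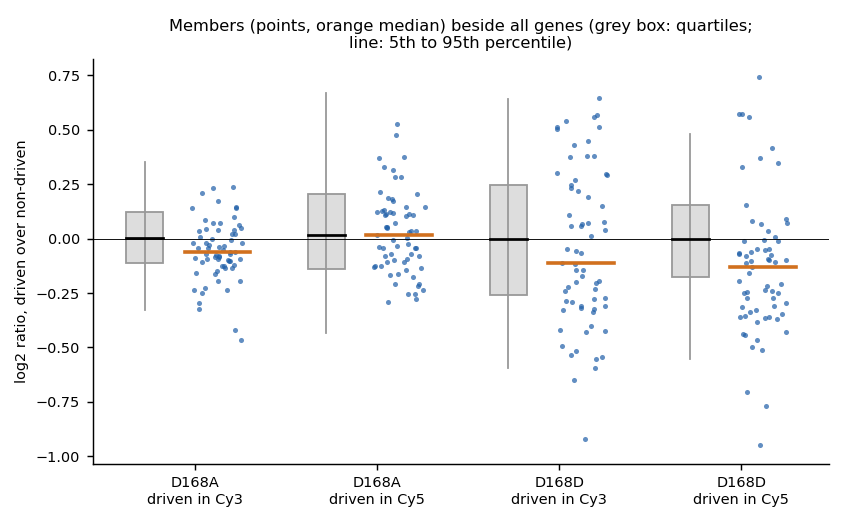
Log2 ratio of driven over non-driven cells (vertical axis) on each of the 4 arrays. Blue points are the 65 mitochondrial ribosomal protein genes with their median as an orange line, and the grey boxes, black lines and whiskers give the quartiles, median and 5th to 95th percentile of all 10804 genes. The median of the members is below 0 on 3 arrays and at 0.02 on the D168A array with driven RNA in Cy5.

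Both forms share the driver and the kind of mother, so a comparison of both with 0 asks what was alike in the driven cells of either form. Over both forms the median of the members was -0.08, against -0.00118 for all genes. On the Cy3-driven arrays alone it was -0.0396 and on the Cy5-driven arrays alone -0.0695. All 4 arrays were below 0 for 15 members (23.1%, against 8.26% of all genes) and above 0 for 2, mRpL1 and mRpL10 (3.08%, against 9.33%). The 15 were mRpL13, mRpL14, mRpL22, mRpL33, mRpL35, mRpL38, mRpL40, mRpL41, mRpL42, mRpL44, mRpL46, mRpS17, mRpS18A, mRpS26 and mRpS29, with means from -0.43 to -0.10. The rule was applied to means over probes, and mRpL35 and mRpS29 each had a probe above 0 on some array. In limma on the 2 form means over all genes, two-sided, with Benjamini-Hochberg adjustment, 0 members passed an adjusted p of 0.05, against 0.0555% of all genes. At an unadjusted p under 0.05 there were 5 lower members (7.69%, against 5.16% of all genes) and 1 higher member (1.54%, against 8%). The lowest adjusted p of a member was 0.340. The test has 1 residual degree of freedom per gene. Its p-values set the mean of the 2 form means against a spread moderated over all genes, after the arrays of a form were averaged. The labels do not say whether the forms came from separate collections, so these p-values speak for these 2 samples only.

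The arrays behind these counts correlated unevenly. Across the 65 members, the Cy5-driven array of D168A and the Cy3-driven array of D168D correlated at a Pearson r of 0.56 (0.30 across all genes). The other 3 pairs of arrays across the forms gave 0.09 for both Cy3-driven arrays, 0.21 for both Cy5-driven arrays and 0.04 for the remaining pair. Across all genes these pairs gave 0.36, 0.15 and -0.15. The arrays of D168A correlated at -0.15 (-0.10 across all genes) and those of D168D at 0.11 (0.01 across all genes). The form means correlated at 0.52 (0.38 across all genes). These are descriptions across genes, which share arrays, amplification and dye. The median distance of an array from its form's mean was 0.09 with D168A and 0.17 with D168D for the members, and 0.11 and 0.16 for all genes. It exceeded the mean itself wherever the arrays lay on different sides of 0, which were 36 members with D168A and 28 with D168D.

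**Figure D3:**
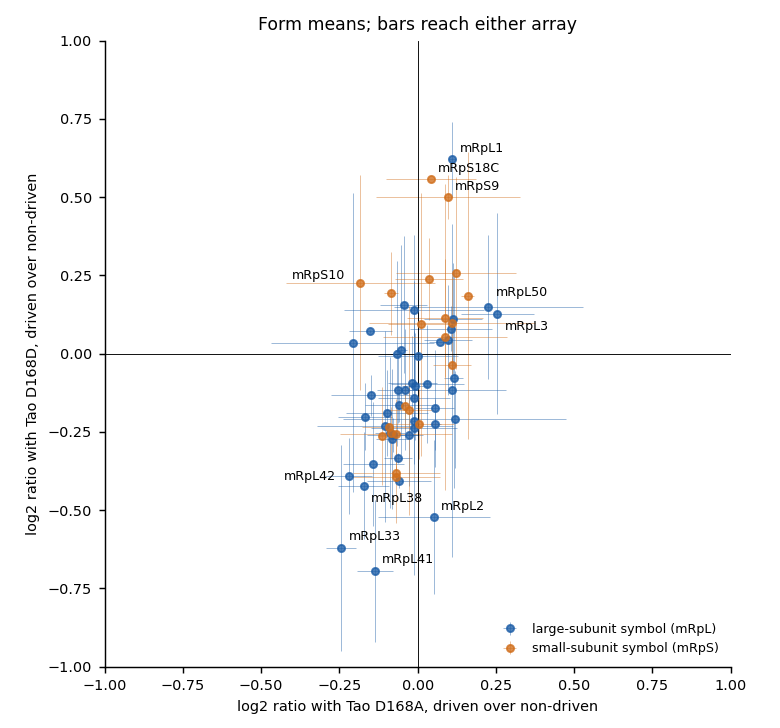
Mean log2 ratio with D168D (vertical axis) against that with D168A (horizontal axis) for the 65 members, large-subunit symbols in blue and small-subunit symbols in orange. Bars reach to either array of a form, and both axes have the same scale. mRpL33, mRpL41, mRpL38 and mRpL42 sit below 0 in both forms, and mRpL1, mRpS18C and mRpS9 stand highest with D168D.

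Members of the catalytic core of the large subunit did not share a direction. mRpL2 and mRpL3 have bacterial counterparts next to the peptidyl transferase centre, where peptide bonds form, and mRpL4 has one at the exit tunnel for the new chain. mRpL2 was at 0.23 on the Cy3-driven and -0.13 on the Cy5-driven array of D168A, and at -0.28 and -0.77 on those of D168D. Its mean was 0.05 ± 0.18 with D168A and -0.52 ± 0.25 with D168D, so it was low on both D168D arrays only. mRpL3 read 0.14 and 0.37 for D168A and 0.45 and -0.19 for D168D, in the same order of arrays as for all genes below. It was above 0 on 3 arrays, with means of 0.26 ± 0.12 and 0.13 ± 0.32. mRpL4 gave -0.08 and -0.22 with D168A, then 0.08 and 0.07 with D168D, on different sides of 0 in the forms.

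The stalks of the large subunit are mobile arms that bind translation factors or guide the leaving tRNA. The counterpart of mRpL1 forms the stalk at the tRNA exit. mRpL1 read 0.10 and 0.12 for D168A and 0.50 and 0.74 for D168D. All 4 arrays were above 0 and those of D168D were higher than those of D168A, with means of 0.11 ± 0.01 and 0.62 ± 0.12, the latter 1.54-fold. Over both forms it was the highest member, at 0.37, with an adjusted p of 0.378 in limma, and 360 of all genes were higher. mRpL10 and mRpL12 belong to the stalk that recruits translation factors. mRpL10 gave 0.04 and 0.11 with D168A, then 0.04 and 0.04 with D168D, above 0 on every array by little. mRpL12 read 0.06 and -0.09 for D168A and 0.06 and -0.24 for D168D, and its sign followed the dye.

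The 6 lowest means over both forms all belonged to large-subunit symbols, which 44 of the 65 members carry. Small-subunit symbols followed closely, with mRpS24 at -0.23 and mRpS16 at -0.22, against -0.24 for mRpL2, the highest of those 6. mRpL33, the counterpart of bacterial L33, gave -0.20 and -0.29 with D168A, then -0.29 and -0.95 with D168D. It was below 0 on all 4 arrays, with means of -0.24 ± 0.05 (0.844-fold) and -0.62 ± 0.33 (0.651-fold), and the lowest value came from a single D168D array. In limma its mean over both forms was -0.43 (SE 0.12), with an unadjusted p of 0.0136 and an adjusted p of 0.340, and 94 of all genes were lower. mRpL35, the counterpart of bacterial L35, read -0.13 and -0.04 for D168A and -0.49 and -0.01 for D168D. These means of its probes were below 0 throughout but near it on the arrays with driven RNA in Cy5.

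Several of the low members are proteins that bacterial ribosomes lack. mRpL41 gave -0.19 and -0.08 with D168A, then -0.92 and -0.47 with D168D. Both D168D arrays were lower than both D168A arrays, with means of -0.14 ± 0.06 and -0.69 ± 0.23, the latter 0.618-fold. The adjusted p of mRpL41 over both forms was 0.367 in limma. mRpL42 read -0.30 and -0.14 for D168A and -0.27 and -0.51 for D168D, so the arrays of the forms overlapped (means -0.22 ± 0.08 and -0.39 ± 0.12, limma adjusted p = 0.353).

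mRpL38 resembles phosphatidylethanolamine-binding proteins and its mammalian counterpart sits at the central protuberance of the large subunit. It gave -0.09 and -0.25 with D168A, then -0.59 and -0.25 with D168D, with means of -0.17 ± 0.08 and -0.42 ± 0.17 (limma adjusted p = 0.366). mRpL44, whose mammalian counterpart has a fold like that of RNase III, read -0.05 and -0.24 for D168A and -0.55 and -0.16 for D168D. Its means were -0.14 ± 0.10 and -0.35 ± 0.20, the forms' arrays overlapped, and its adjusted p in limma was 0.378.

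mRpL45, mRpL50 and mRpL55 also belong to the large subunit. mRpL45, whose mammalian counterpart helps anchor the ribosome to the inner membrane, gave -0.08 and 0.15 with D168A, then -0.29 and 0.09 with D168D. mRpL50 read -0.08 and 0.53 for D168A and 0.38 and -0.08 for D168D, and its mean of 0.19 over both forms came from 1 array of each form. mRpL55, the counterpart of bacterial L31, gave 0.08 and 0.15 with D168A, then 0.27 and -0.43 with D168D. In these 3 members the arrays of D168D stood on different sides of 0.

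mRpS18A and mRpS30 are named for the small subunit, but their mammalian counterparts sit on the large one. mRpS18A, 1 of 3 members of the S18 family, read -0.09 and -0.08 for D168A and -0.17 and -0.34 for D168D, below 0 on all 4 arrays. The other members of the family did not share that pattern. mRpS18B gave -0.10 and 0.11 with D168A, then -0.34 and -0.11 with D168D, while mRpS18C read -0.10 and 0.19 for D168A and 0.56 and 0.56 for D168D. mRpS18C was thus equally high on both D168D arrays and on either side of 0 with D168A. mRpS30 gave 0.14 and 0.18 with D168A, then 0.65 and -0.27 with D168D, so its mean with D168D (0.19 ± 0.46) joined arrays far apart.

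In the small subunit, mRpS9, mRpS11 and mRpS10 have bacterial counterparts around the head and platform that hold mRNA and tRNA. mRpS9 read -0.13 and 0.33 for D168A and 0.43 and 0.57 for D168D, high on both D168D arrays (0.50 ± 0.07). mRpS11 gave -0.07 and 0.31 with D168A, then 0.57 and -0.05 with D168D, with arrays of either form on different sides of 0. mRpS2 and mRpS7 likewise have bacterial counterparts, which bind the small-subunit RNA. mRpS2 read 0.17 and 0.05 for D168A and -0.06 and -0.01 for D168D, and mRpS7 was at 0.21 and -0.03 and at 0.30 and -0.07, high with driven RNA in Cy3 and near 0 in Cy5. The gene bonsai encodes the counterpart of bacterial S15 and is no member by its symbol. It was at -0.06 ± 0.11 with D168A and -0.32 ± 0.05 with D168D, within the range of the members.

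Further members are named here after their values were seen, some for low and some for widely separated D168D arrays. mRpL43, mRpL46 and mRpS16 were at -0.41 ± 0.02, -0.33 ± 0.01 and -0.38 ± 0.02 with D168D, and at -0.06 ± 0.10, -0.06 ± 0.04 and -0.07 ± 0.14 with D168A. mRpS24, the counterpart of bacterial S3, was at -0.40 ± 0.15 with D168D, and mRpS29, the counterpart of the mammalian GTP-binding protein DAP3, at -0.24 ± 0.0021. The arrays of mRpS29 were this alike only in the mean of its probes. With D168D these read -0.13 and -0.26 for the higher probe and -0.33 and -0.21 for the lower. By contrast, mRpL27 was at -0.65 on the Cy3-driven and 0.42 on the Cy5-driven array of D168D. mRpS28 was at 0.54 and -0.44, mRpL52 at 0.51 and -0.44, and mRpL9 at 0.23 and -0.71. In these 4 members the D168D arrays lay farther from each other than any mean of a member lay from 0.

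By subunit, the large-subunit symbols lay lower in the means over arrays. Their median over both forms was -0.08, with 34 of 44 below 0 (77.3%), and that of the small-subunit symbols was 0.04, with 9 of 21 below 0 (42.9%). Over all genes 50.3% were below 0 in that mean. With D168A the medians were -0.03 and 0.0049, and with D168D they were -0.14 and 0.05. On the single D168D arrays both classes had medians below 0, at -0.13 and -0.06 (Cy3-driven) and -0.20 and -0.10 (Cy5-driven). On those of D168A they were -0.06 and -0.07 (Cy3-driven) and 0.01 and 0.05 (Cy5-driven). The large-subunit symbols were thus not lower on every array. All 4 arrays were below 0 for 11 of the 44 (25%) and for 4 of the 21 (19.0%). For ancestry, symbols numbered up to 36 (L) or 21 (S), mRpL55, mRpS24 and mRpS28 were counted as having a bacterial counterpart, the divergent S18 copies mRpS18A and mRpS18B included. The other 24, counted as mitochondria-specific, had a median of -0.11 over both forms, with 18 below 0 (75%), and the 41 with a bacterial counterpart one of -0.06, with 25 below 0 (61.0%). All 4 arrays were below 0 for 8 of the 24 (33.3%) and 7 of the 41 (17.1%). The 16 mitochondria-specific proteins of the large subunit were lowest, at -0.06 with D168A, -0.22 with D168D and -0.14 over both forms, with 14 of 16 below 0 (87.5%). They were not lowest on every array. On the Cy5-driven array of D168A their median was 0.03, with 7 of 16 below 0. On that array the 24 mitochondria-specific members had a median of 0.03, and the 41 with a bacterial counterpart one of 0.0018. These differences between classes were not tested.

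Setting the forms against each other within a dye orientation removes what the driver and the mothers give alike. The median of D168A minus D168D over the members was 0.13, against 0.03 over all genes. Between the arrays with driven RNA in Cy3 it was 0.04, against 0.02 over all genes. Between those with driven RNA in Cy5 it was 0.15, against 0.02. In the Cy3 orientation 35 members were above 0 (53.8%, against 52.8% of all genes), and in the Cy5 orientation 46 (70.8%, against 52.0%). The members thus stood apart from all genes mainly in the Cy5 orientation. The difference was above 0 in both orientations for 22 members (33.8%, against 22.2% of all genes) and below 0 in both for 6 (9.23%, against 17.2%). A difference of 2-fold in both was met by 0 members, against 0.139% of all genes. At 1.2-fold in both, mRpL2 and mRpL41 were higher with D168A (3.08%, against 4.07% of all genes). mRpL1, mRpS10 and mRpS18C were lower (4.62%, against 2.73%). For mRpS10 this holds for the mean of its probes, which disagreed in the Cy3 orientation. Each form is 1 replicate, so these differences have no test.

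mRpL2 showed the highest difference of the log2 ratios, 0.51 in the Cy3 and 0.64 in the Cy5 orientation, with a mean of 0.57 ± 0.07. mRpL41 followed at 0.73 and 0.39, with a mean of 0.56 ± 0.17. mRpL33 came next at 0.10 and 0.66, with a mean of 0.38 ± 0.28, so its difference rested mainly on the Cy5 orientation. At the other end, mRpS18C differed by -0.66 and -0.37, and mRpL1 by -0.40 and -0.62, each with a mean of -0.51. mRpS10 differed by -0.30 and -0.52, with a mean of -0.41 ± 0.11, but its probes disagreed. In the Cy3 orientation its lower probe read -0.43 with D168A and -0.61 with D168D, so there D168A was higher. The other probe read -0.41 and 0.38. In the Cy5 orientation both were lower with D168A, at -0.12 and 0.24 and at 0.22 and 0.91. Across the members the differences in the Cy3 and Cy5 orientations correlated at a Pearson r of -0.25, and across all genes at -0.21. Over the set as a whole, a high difference in one orientation did not go with a high one in the other.

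**Figure D4:**
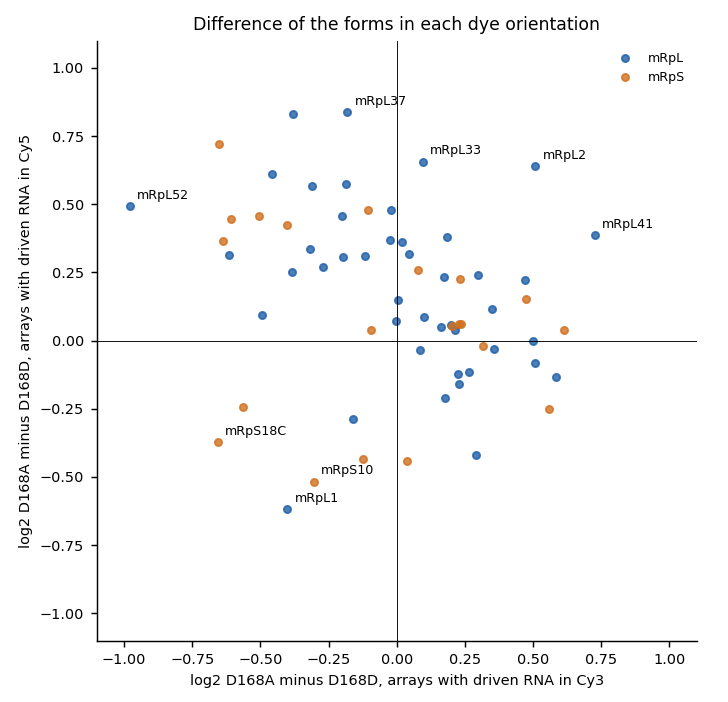
Difference of the log2 ratios, D168A minus D168D, between the arrays with driven RNA in Cy5 (vertical axis) and between those with driven RNA in Cy3 (horizontal axis), for the 65 members by subunit symbol. Points in the upper right and lower left quadrants have the same sign in both orientations, 22 and 6 members. mRpL2 and mRpL41 lie upper right, and mRpL1, mRpS18C and mRpS10 lower left.

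Probes of 1 gene did not always agree. Among the 10 members with 2 probes, those of mRpS10 were farthest apart in the mean over 4 arrays, at -0.23 and 0.28. With D168D they read -0.19 and 0.64, so its gene values, -0.42 and 0.05 for D168A and -0.12 and 0.57 for D168D, average probes that differed in sign on 2 of the arrays. The probes of mRpL37, a mitochondria-specific large-subunit protein, read 1.54 and -0.59 on the D168A array with driven RNA in Cy5. Its gene values were -0.24 and 0.47 for D168A and -0.06 and -0.36 for D168D, and the 0.47 joins those probes. The probes of mRpL35 were at -0.07 and -0.28 in the mean over 4 arrays, both below 0. On the Cy5-driven arrays, however, the former was above 0, at 0.06 with D168A and 0.0019 with D168D.

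Other genes of mitochondrial translation and of the mitochondrial genome had medians nearer 0 with D168D. The list of 10 mitochondrial translation factors, for initiation, elongation, release and recycling, also holds the transcription terminator mTTF. It had medians of 0.03 with D168A and -0.01 with D168D. The 12 mitochondrial aminoacyl-tRNA synthetases, which charge the tRNAs, stood at 0.14 and -0.00178. The 15 genes of mitochondrial DNA, transcription and RNA processing stood at 0.04 and -0.02. In limma 0 genes of these 3 lists passed an adjusted p of 0.05 in either direction. At an unadjusted p under 0.05 there was 1 higher translation factor (10%), and there were 2 higher synthetases (16.7%) and 1 lower (8.33%). All 4 arrays were below 0 for 0 of 10, 2 of 12 (16.7%) and 2 of 15 (13.3%). Of all genes, 8.26% were below 0 on all 4 arrays, and 5.16% were lower and 8% higher at that unadjusted p.

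The nearest values were those of the lists for the cytosolic ribosome and for oxidative phosphorylation. The 36 genes listed as cytosolic ribosomal proteins were taken by symbol, with paralogues and genes named -like, such as RpL7-like, among them. Their medians were -0.04 with D168A, -0.09 with D168D and -0.07 over both forms. Of these genes, 9 (25%) were below 0 on all 4 arrays. The 74 oxidative phosphorylation genes, taken by name and with paralogues of unknown use in these cells, had medians of -0.02, -0.12 and -0.09, and 17 (23.0%) were below 0 on all 4 arrays. The 23.1% of mitochondrial ribosomal protein genes with that pattern lay between these shares. In limma 0 genes of either list passed an adjusted p of 0.05. At an unadjusted p under 0.05 there were 5 lower (13.9%) and 1 higher (2.78%) cytosolic ribosomal proteins, and 6 lower (8.11%) and 2 higher (2.70%) oxidative phosphorylation genes. No difference between lists was tested.

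**Figure D5:**
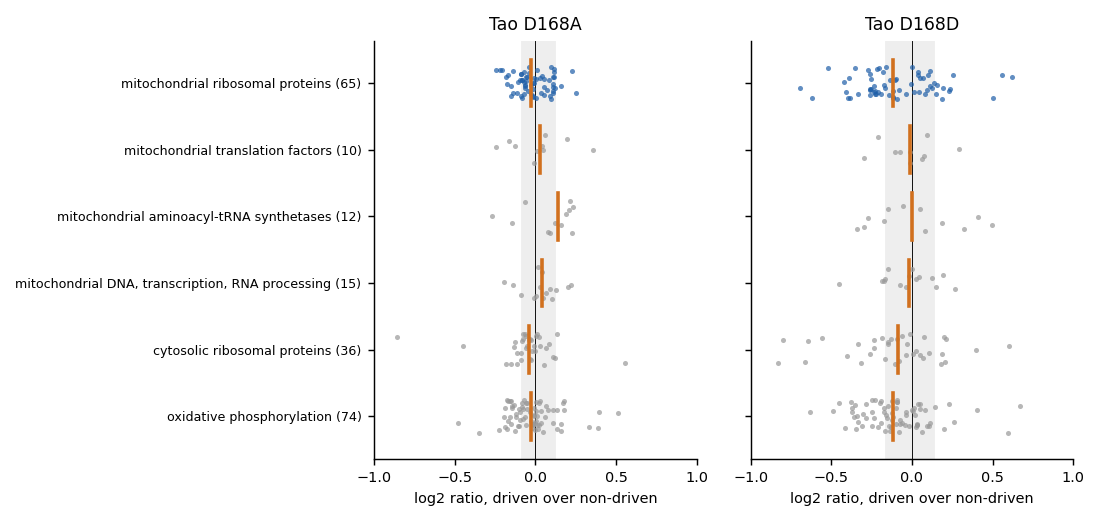
Mean log2 ratio of driven over non-driven cells (horizontal axis) with D168A on the left and D168D on the right, for the 65 mitochondrial ribosomal protein genes in blue and for 5 comparison lists in grey, with the number of genes in brackets. Orange bars are list medians and the grey band spans the 25th to 75th percentile of all genes. With D168D the medians of the mitochondrial and cytosolic ribosomal proteins and of oxidative phosphorylation are -0.12, -0.09 and -0.12, and the other 3 lists lie within 0.02 of 0.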

How the data were processed

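The authors deposited a log10 ratio per feature, and the submitters' processing notes name Agilent Feature Extraction 7.1. Its settings, its background correction, any centring and the log base are not stated beside the values; the base was taken as log10 from the 100-fold limit of the values. The ratios were read as already running driven over non-driven on all 4 arrays. Tao is above 0 on each, and all 314 unnamed features beyond 10-fold on every array turn sign with the dye. No sign was turned. Spot intensities were not used, so brightness over background is unknown, and precision is limited by the few arrays. Of 22575 features, the 17328 with 1 symbol in the platform annotation (326 had several, 4921 none) were converted to log2 and averaged into 10804 genes. All 65 member symbols matched by gene ID in RefSeq's gene table (Release 6 plus ISO1 MT). A dye effect particular to a gene cancels in the mean of both orientations. The contrast common to both forms was fitted over all genes with limma 3.58.1 (lmFit, eBayes, R 4.3.3).

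Named members were the 6 highest and 6 lowest means over both forms, the 3 highest and 3 lowest differences, the 3 with the most distant probes, any called member and the 14 measured textbook members whatever their values. Others were named after their values were seen or where a count lists them. The members, lists and rules were chosen with earlier results of these data known. The alternatives covered centring, probes in place of genes, single dye orientations, zeros, thresholds, log base and the arrays as replicates.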

Additional observations from a re-analysis of the deposited data

Results flagged for a closer look

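In 4 of 65 members (6.15%, against 530 of 10804 genes or 4.91%), the D168A arrays were together on one side of 0 and the D168D arrays together on the other. The share of members was thus close to that of all genes. The difference between the forms was not tested, since each form is 1 replicate. For mRpS6, named for this pattern, D168A minus D168D was -0.28, with means of -0.09 ± 0.02 and 0.19 ± 0.13. For mRpL4 it was -0.22. For mRpS2 it was 0.15, and for mRpL28, also named for this pattern, it was 0.28, with means of 0.06 ± 0.02 and -0.23 ± 0.08.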

How the results depend on the processing

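The counts of 2-fold members and of adjusted limma calls stayed at 0 under every alternative tried except the lower thresholds given next, single probes included, and the lowest adjusted p of a member ranged from 0.235 to 0.672 over the limma fits. At an unadjusted p under 0.05 limma gave 6 members, and 2 to 7 in the other fits. The 1.2-fold threshold, added after seeing the data, gave 10 members with D168D and 5 for the difference. The D168D median was -0.0914 as a mean and -0.13 with driven RNA in Cy5 alone. The median difference was 0.0378 with driven RNA in Cy3 alone and 0.0755 as a mean, and the median over both forms was -0.0396 with driven RNA in Cy3 alone. The D168A median was -0.06 on the Cy3 and 0.02 on the Cy5 orientation, which turns its side of 0. Centring moved no member by more than 0.0031. With 1 dye orientation alone, 2 (Cy3) and 6 (Cy5) of the 25 named members changed their side of 0 in the mean over both forms. Of tko and bonsai, only bonsai had a value to add. The cause of these moves was not tested. No paired analysis was possible because the forms share only the number 1. With 1 replicate per form and signal over background unknown, differences of the size seen here are within the distance between arrays for many members.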
